A study of Mus musculus with 6 samples.

Results

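Krüppel-like factors were followed in liver mRNA of male C57BL/6J mice fed a high-fat diet with an extract of the oriental herbal medicine Bangpungtongseong-san (BT), against mice fed the high-fat diet alone (HFD). The 10 genes Klf2, Klf3, Klf4, Klf6, Klf9, Klf10, Klf11, Klf12, Klf13 and Klf15 were taken by symbol from the 23474 gene identifiers of the deposited table, and all 10 were present. The BT diet was the high-fat diet with 1.5% (w/w) extract, and both diets were started at 5 weeks of age and fed for 12 weeks, until 17 weeks of age. The study held 20 mice, 10 per diet, and 3 BT libraries and 3 HFD libraries were sequenced. All mice had the same strain and sex and both groups ate the high-fat diet, so no lean reference enters any comparison. Whether each library came from a single animal is not stated, so p-values here reflect only how far these 6 libraries spread.

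Krüppel-like factors are transcription factors that bind GC-rich and CACCC sequences in promoters through zinc fingers near the end of the protein, while the rest of the protein recruits cofactors. Klf2, Klf4 and Klf6 mostly activate transcription, Klf3 and Klf12 repress it through the corepressor CtBP, and Klf9, Klf10, Klf11 and Klf13 can repress it through Sin3. Klf15 is a metabolic regulator of hepatocytes that links amino acid breakdown to glucose production. Several members respond to hormones or to the day-night cycle, Klf2 and Klf4 are known from endothelial cells under blood flow, and Klf6 was described in stellate cells after liver injury.

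The shared feature of the family is shown first, as the DNA that encodes the zinc fingers. It was read from GENCODE M21 transcripts (GRCm38) in the reading frame that holds 3 consecutive fingers, and all 10 members had a stretch of 243 bases, or 81 codons, with the same spacing. The closest pairs are printed 5′ to 3′ in transcript orientation, with the 12 cysteine and histidine codons that hold the zinc ions in capitals. Klf2 lies on the plus strand (chr8:72320170-72320913, introns included) and Klf4 on the minus strand (chr4:55528131-55529790). Klf12 lies on the minus strand (chr14:99875145-99900154) and Klf3 on the plus strand (chr5:64827198-64829146).
Klf2: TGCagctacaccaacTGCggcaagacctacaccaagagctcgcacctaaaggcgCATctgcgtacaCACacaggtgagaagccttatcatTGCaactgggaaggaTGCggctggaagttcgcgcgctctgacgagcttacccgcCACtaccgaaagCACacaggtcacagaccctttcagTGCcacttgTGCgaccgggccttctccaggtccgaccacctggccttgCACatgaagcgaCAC
Klf4: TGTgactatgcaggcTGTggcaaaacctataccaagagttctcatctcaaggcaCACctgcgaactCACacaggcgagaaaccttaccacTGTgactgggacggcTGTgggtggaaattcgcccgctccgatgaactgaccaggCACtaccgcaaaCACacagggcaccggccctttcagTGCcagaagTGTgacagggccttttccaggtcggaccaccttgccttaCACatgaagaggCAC
Klf12: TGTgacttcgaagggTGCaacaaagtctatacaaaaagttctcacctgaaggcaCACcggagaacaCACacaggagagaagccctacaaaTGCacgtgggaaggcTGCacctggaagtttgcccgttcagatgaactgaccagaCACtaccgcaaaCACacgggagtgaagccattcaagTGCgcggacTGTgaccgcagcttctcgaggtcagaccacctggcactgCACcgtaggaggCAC
Klf3: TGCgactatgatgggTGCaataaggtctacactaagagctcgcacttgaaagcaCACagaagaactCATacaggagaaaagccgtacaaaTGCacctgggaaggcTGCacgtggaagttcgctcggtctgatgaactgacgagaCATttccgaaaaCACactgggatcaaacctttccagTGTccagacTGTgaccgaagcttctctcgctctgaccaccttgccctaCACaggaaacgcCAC
Klf2 and Klf4 shared 78.2% of these bases, and so did Klf12 and Klf3. Klf10 and Klf11 shared 76.1%. Over all 45 pairs of members the identity ran from 57.2% to 78.2%, with a median of 64.2%. The longest run of bases shared by any pair was 18, so even the fingers, the part the family has in common, held no long identical run.

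**Figure D1:**
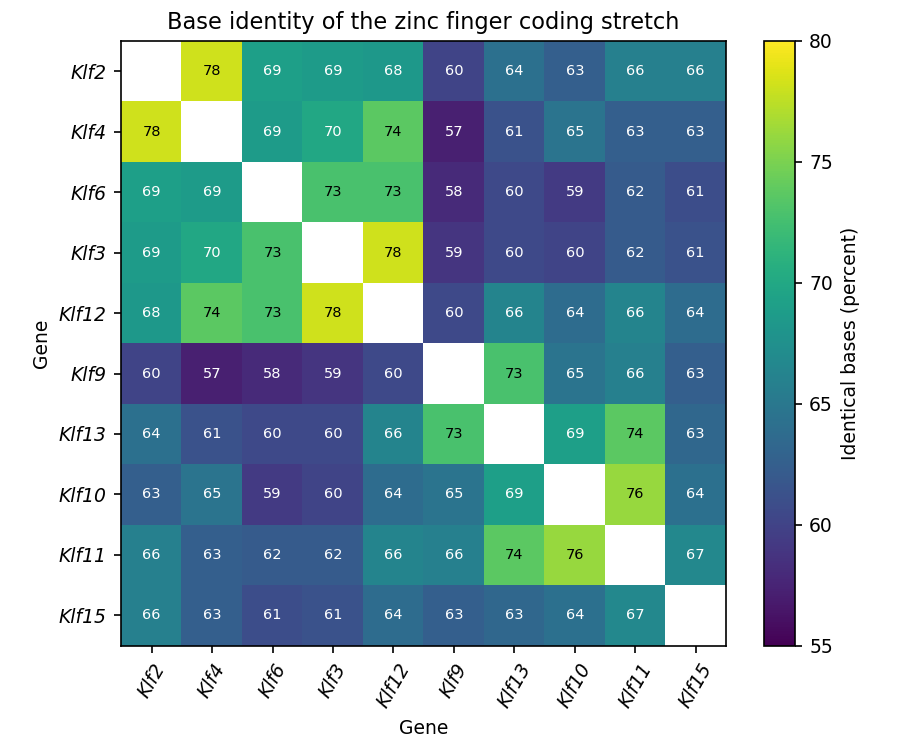
Percent of identical bases between the zinc finger coding stretches of each pair of the 10 genes, in GENCODE M21 transcripts; colour and number both give the identity. Klf2 with Klf4 and Klf12 with Klf3 stand highest at 78.2%, and Klf15 is no closer than 66.7% to any member.

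Liver identity and library depth were checked before the members were read. Depth was put at 14.0 to 15.1 M fragments in the BT libraries and 13.8 to 15.8 M in the HFD libraries from the smallest values of the table, a rough estimate. The hepatocyte marker Alb had 22791 to 27895 FPKM in 5 libraries but is given as 0 for HFD replicate 3, so a value of 0 can be a failed estimate, and no member was listed at 0 in any library. The mitochondrial gene mt-Co1, at 44334 to 53659 FPKM in the same 5 libraries, is also given as 0 for HFD replicate 3. The 7 other hepatocyte markers summed to 18515 to 19336 FPKM in BT libraries and 18876 to 22259 FPKM in HFD libraries. The test of Alb includes its 0 (adjusted p = 0.338), so it tells nothing about that gene. Of the 8 markers 1 was called lower and none higher. This was Ttr, the thyroid hormone carrier transthyretin, with 3076 ± 121 FPKM with BT and 5221 ± 700 FPKM with HFD (SD, n = 3 each; -0.76, adjusted p = 0.0157). Cyp2e1, a cytochrome P450, stood at 9240 ± 255 FPKM with BT and 6427 ± 923 FPKM with HFD (0.53, adjusted p = 0.0501), and neither gene's diets overlapped. The library codes in the labels carry a different letter for each diet, so a difference in handling between the sets cannot be told apart from diet.

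Klf15 was by far the most abundant member, at 58.5, 66.6 and 57.6 FPKM in BT libraries and 61.9, 65.4 and 67.0 FPKM in HFD libraries. FPKM is scaled by transcript length, so levels of different genes can be set side by side. Klf9 came next at a mean of 12.7 FPKM over the 6 libraries, and its highest library lay below the lowest Klf15 library. From there down, each member's range over the 6 libraries overlapped that of its neighbour. The order of means was Klf10 (8.63 FPKM), Klf3 (7.61), Klf13 (4.46), Klf6 (3.22), Klf11 (3.09), Klf2 (2.33), Klf12 (1.36) and Klf4 (0.556). Klf15 stood at the 88.9th percentile of level among the genes tested, and Klf12 at the 4.8th.

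**Figure D2:**
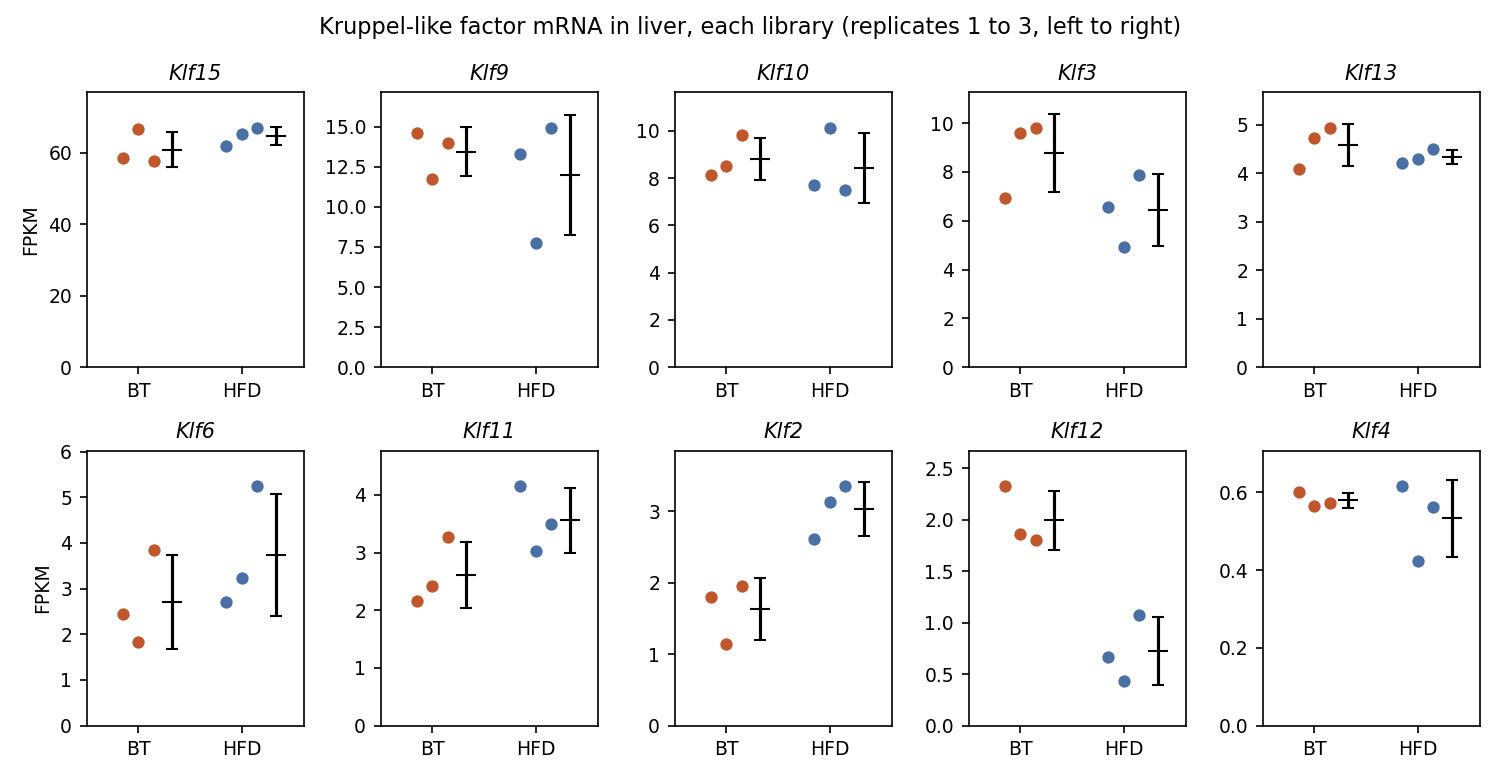
FPKM of each of the 10 members in each library, ordered by mean level; points are libraries (BT left, HFD right) and the bar beside them gives mean and SD (n = 3 each). Each panel has its own axis from 0. The BT and HFD points do not overlap for Klf2 and Klf12 and overlap for the other 8 genes.

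Between the diets, Klf12 was higher and Klf2 was lower with BT, and the other 7 members tested did not pass the threshold. Tests were run as log2(FPKM + 1) over the 10476 genes that averaged 1 FPKM or more, with limma and Benjamini-Hochberg adjustment, at an adjusted p of 0.05. Of all genes tested, 13.3% passed (6.01% higher and 7.33% lower with BT), against 2 of 9 members (22.2%), which with so few members is no result about the family. BT and HFD values did not overlap in 39.3% of all genes tested (23.2% with BT above and 16.1% with BT below), against 2 of the 9 members, 1 in each direction. The members' median change was 0.06, against 0.07 over all genes tested, with 5 members positive and 4 negative. Klf4 lay below the level filter and was not tested. Klf12 passed this filter only through its BT values. Without the filter neither Klf12 (adjusted p = 0.0523) nor Klf2 (adjusted p = 0.0885) was called.

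**Figure D3:**
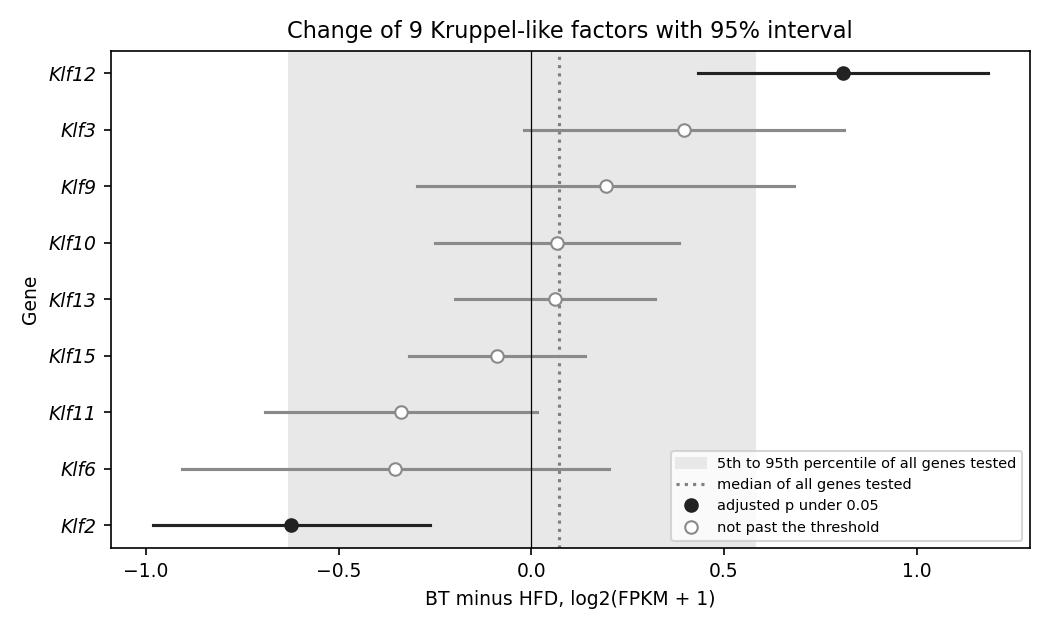
BT minus HFD change of the 9 members tested, on the log2(FPKM + 1) scale, with 95% intervals from limma; the grey band spans the 5th to the 95th percentile of change over all 10476 genes tested (-0.63 to 0.58). Klf12 (0.81) lies above the band, Klf2 (-0.62) lies just inside its lower edge, and the intervals of the other 7 include 0.

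Klf2, which in endothelial cells is induced by blood flow and keeps them quiescent, is a short gene on chromosome 8 (72319033 to 72321656, plus strand, GRCm38). It stood at 1.802, 1.139 and 1.960 FPKM in BT livers, against 2.61, 3.13 and 3.35 FPKM in HFD livers. Every BT library lay below every HFD library. The means were 1.63 ± 0.44 FPKM with BT and 3.03 ± 0.38 FPKM with HFD (SD, n = 3 each), a ratio of 0.54. On the log2(FPKM + 1) scale, where the change of a gene this low comes out too small, Klf2 fell by 0.62 ± 0.16 (SE, adjusted p = 0.0383, 95% interval -0.98 to -0.26), and with a pseudocount of 0.1 by 0.88. At the estimated depths these levels correspond to roughly 32 to 51 fragments in BT libraries and 76 to 96 in HFD libraries. No other annotated exon covers bases of the gene. The call was kept in 1 of the 6 fits that left out a library, the one without HFD replicate 1, and in the other 5 the adjusted p was 0.0543 to 0.113.

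Klf2 has a short and GC-rich mRNA, and both properties moved with diet across the table. Its longest transcript has 1847 bases and 61.6% GC. In the shortest quintile of genes tested (151 to 1870 bases) 22.6% were called lower with BT and 2.16% higher. In the quintile with the highest GC content 12% were called lower and 5.09% higher. With each library's trend on length and GC removed, the change of Klf2 was -0.33 ± 0.17 (adjusted p = 0.257), so the call ended. Klf2 also missed the threshold when each library was rescaled to the same sum (-0.59, adjusted p = 0.0646). The sum of HFD replicate 3 holds no value of Alb or mt-Co1, so its rescaled values come out higher than with both counted. For Klf2 this makes the fall larger, not smaller, and its effect on the adjusted p was not tested.

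**Figure D4:**
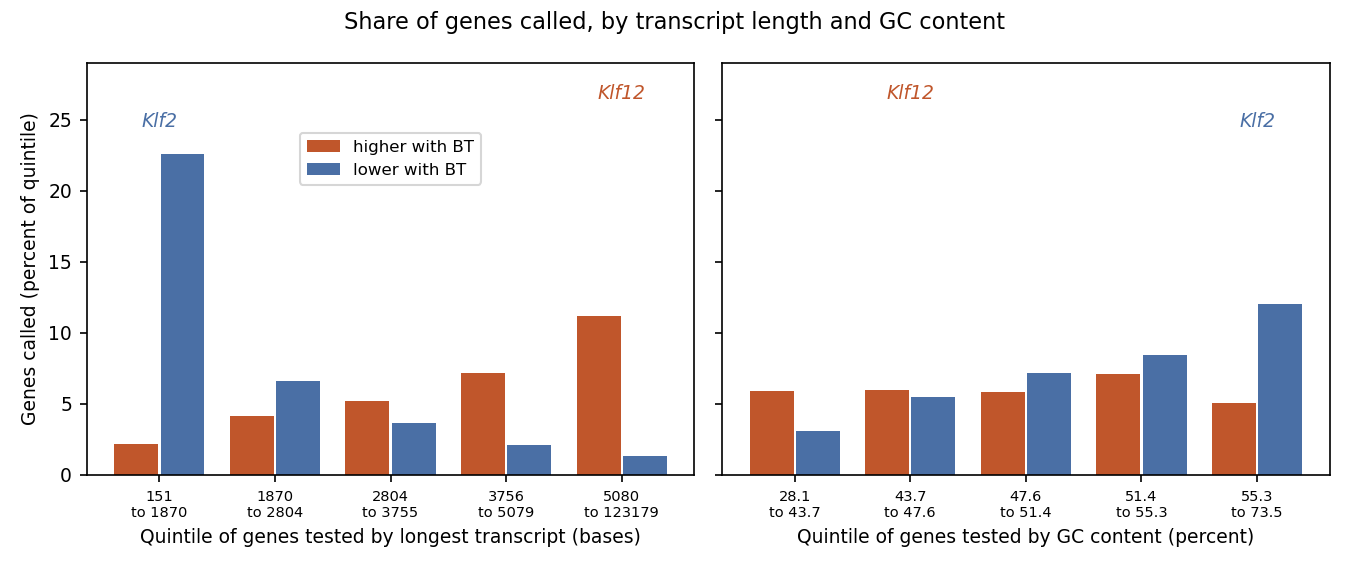
Percent of genes called higher (orange) or lower (blue) with BT in each quintile of the genes tested, by longest annotated transcript (left) and GC content (right); the gene names mark the quintiles that hold Klf12 and Klf2. Lower calls are most frequent among the shortest genes (22.6%), where Klf2 lies, and higher calls among the longest (11.2%), where Klf12 lies.

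The cells in which Klf2 is best known could be followed through other genes. The 10 sinusoidal endothelial markers summed to 52.3 to 65.6 FPKM in BT libraries and 57.9 to 75.1 FPKM in HFD libraries, which overlap, and none of the 9 tested was called. Of them Stab1, a scavenger receptor, had the smallest p (-0.48, adjusted p = 0.0668), and Kdr, a receptor for endothelial growth factor, differed by 0.28 (adjusted p = 0.259). Clec4g was listed at 0 in all 6 libraries. In whole liver, fewer cells of a type and less RNA per cell cannot be told apart. Kupffer and macrophage markers summed to 102 to 130 FPKM with BT and 101 to 135 FPKM with HFD. Those of lymphocytes summed to 2.77 to 6.88 FPKM with BT and 2.48 to 3.84 FPKM with HFD, and those of cholangiocytes to 1.66 to 2.35 FPKM with BT and 2.13 to 3.21 FPKM with HFD. Most of the lymphocyte sum was Ptprc (3.21 ± 1.72 FPKM with BT, 2.11 ± 0.59 FPKM with HFD). It was the only 1 of those 5 markers to pass the level filter, so the sum says little about lymphocytes. None of these sums moved apart between diets. The sum of the 8 stellate and fibroblast markers did, with 79.3 to 99.99 FPKM in BT libraries and 105 to 162 FPKM in HFD libraries. Most of this sum was Dcn alone, at 56.5, 70.5 and 71.2 FPKM with BT and 74.2, 83.5 and 109 FPKM with HFD. Only 2 of the 7 tested, Dcn and Col3a1, had every BT library below every HFD library, and Hgf differed in the other direction (0.34, adjusted p = 0.23). The sum therefore does not describe the markers as a set. Among these markers Col3a1, a fibrillar collagen gene, was called lower (-1.36, adjusted p = 0.0354), the other 6 tested were not called, and Lrat was listed at 0. Their part in the values of Klf2 and Klf6 was not tested.

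The pathway that carries the flow signal to Klf2 and Klf4 showed no call among 8 members tested, with a median change of 0.14. Map3k3, the kinase at its top, had 8.98 ± 0.66 FPKM with BT and 6.25 ± 1.39 FPKM with HFD (0.48, adjusted p = 0.0711). Mef2a, a transcription factor at its end, had 8.95 ± 0.15 FPKM with BT and 6.53 ± 1.47 FPKM with HFD (0.42, adjusted p = 0.0931). Of 10 endothelial targets only 4 passed the level filter, and none of these was called. S1pr1, a lipid receptor gene, differed by 0.40 (adjusted p = 0.239) and Tie1, an endothelial receptor kinase gene, by 0.10 (adjusted p = 0.634). Nos3 and Thbd, textbook targets that Klf2 activates, lay below the filter at mean levels of 0.108 and 0.477 FPKM with BT and 0.252 and 0.66 FPKM with HFD. Exons of other gene models cover 32.3% of the exon bases of Nos3. Also below the filter were Edn1 (0.220 FPKM with BT, 0.415 with HFD), Ptgds (0.0987 and 0.116) and Ace (0.130 and 0.128). Cav1 was listed at 0 throughout. None of these was tested.

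The promoter of Klf2 is printed because this gene moved, from RefSeq (GRCm38.p6), covering 250 bases before and 50 bases after the annotated start (chr8:72318812-72319111, plus strand). That of Klf12 (chr14:100149747-100150046, minus strand) is printed beside it, although this RefSeq start lies inside the gene as GENCODE M21 annotates it, downstream of its outermost start. Capitals mark GC boxes (GGGCGG, or CCGCCC on the other strand) and CACCC boxes (CACCC, or GGGTG on the other strand).
Klf2 promoter: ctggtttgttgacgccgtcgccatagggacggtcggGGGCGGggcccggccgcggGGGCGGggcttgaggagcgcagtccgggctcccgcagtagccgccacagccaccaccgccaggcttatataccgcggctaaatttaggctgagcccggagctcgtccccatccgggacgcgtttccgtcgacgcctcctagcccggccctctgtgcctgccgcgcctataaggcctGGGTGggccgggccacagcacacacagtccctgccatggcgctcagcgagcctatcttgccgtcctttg
Klf12 promoter: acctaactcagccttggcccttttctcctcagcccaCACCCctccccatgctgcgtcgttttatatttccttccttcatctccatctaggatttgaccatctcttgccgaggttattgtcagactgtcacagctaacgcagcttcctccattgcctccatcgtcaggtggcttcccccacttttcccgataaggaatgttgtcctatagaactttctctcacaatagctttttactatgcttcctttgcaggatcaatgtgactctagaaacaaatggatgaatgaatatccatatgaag
Klf2 had 2 GC boxes, at -214 and -195 from the start, and 1 CACCC box, at -19. Klf12 had 1 CACCC box, at -214, and no GC box in this window. Promoters were found for 9 of the 10 members. A GC box was present in 7 of these 9 and in 35.7% of all 32851 promoters, and a CACCC box in 6 of 9 and in 57.5% of all. The 9 windows had 45.7% (Klf12) to 77.7% GC (Klf11), with a median of 52.7% over all promoters, and Klf12 was the only one of the 9 below 60%. The E-box CACGTG, which clock factors can bind, was present in the windows of Klf4, Klf6, Klf11 and Klf15 and in 7.15% of all promoters. Klf15 held 3 of them, at -228, -172 and -3. The TATA box TATAAA, searched on both strands, was present in the window of Klf12 alone among the 9 and in 13.6% of all. The Klf12 window lies inside the gene, so its GC content and its boxes may not describe a promoter. Whether it acts as a promoter in liver was not tested.

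Klf4, the nearest relative of Klf2, was low in every library. It stood at 0.601, 0.565 and 0.572 FPKM in BT livers and 0.615, 0.422 and 0.561 FPKM in HFD livers, and the groups overlapped. Fitted without the level filter it differed by 0.04 ± 0.07 (SE, adjusted p = 0.728). Klf6, an injury-response factor, stood at 2.43, 1.84 and 3.84 FPKM with BT and 2.72, 3.23 and 5.24 FPKM with HFD. Its libraries varied more than those of most genes (94.7th percentile of residual SD), the groups overlapped, and the change was -0.35 (adjusted p = 0.341, 95% interval -0.91 to 0.20). The interval was wide, and a change of Klf6 as large as that of Klf2 lay inside it.

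Klf12, a repressor first described at the promoter of an AP-2 gene, lies on chromosome 14 (99870632 to 100284679, minus strand) and spans 414048 bases. It stood at 2.322, 1.864 and 1.798 FPKM in BT livers, against 0.664, 0.433 and 1.08 FPKM in HFD livers. Every BT library lay above every HFD library. The means were 1.99 ± 0.29 FPKM with BT and 0.724 ± 0.326 FPKM with HFD (SD, n = 3 each), a 2.75-fold difference. On the log2(FPKM + 1) scale, where changes of genes this low come out too small, Klf12 rose by 0.81 ± 0.16 (SE, adjusted p = 0.0206, 95% interval 0.43 to 1.18), and with a pseudocount of 0.1 by 1.41. This change lay at the 98.3rd percentile of all genes tested.

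Klf12 is the least abundant member tested, and its HFD mean was below the filter of 1 FPKM, so it entered the test through its BT values. Without the filter its adjusted p was 0.0523. Its longest coding transcript (5890 bases) would give roughly 148 to 198 fragments in BT libraries and 35 to 99 in HFD libraries, and its shortest (719 bases) 18 to 24 with BT and 4 to 12 with HFD. The transcript lies in the longest quintile of genes tested, where 11.2% were called higher with BT and 1.3% lower. With the length and GC trend removed Klf12 kept its call (0.62 ± 0.14, adjusted p = 0.0344). It was also kept in 3 of the 6 fits that left out a library, and was lost without HFD replicate 2, BT replicate 1 or BT replicate 2 (adjusted p 0.0577 to 0.0911).

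**Figure D5:**
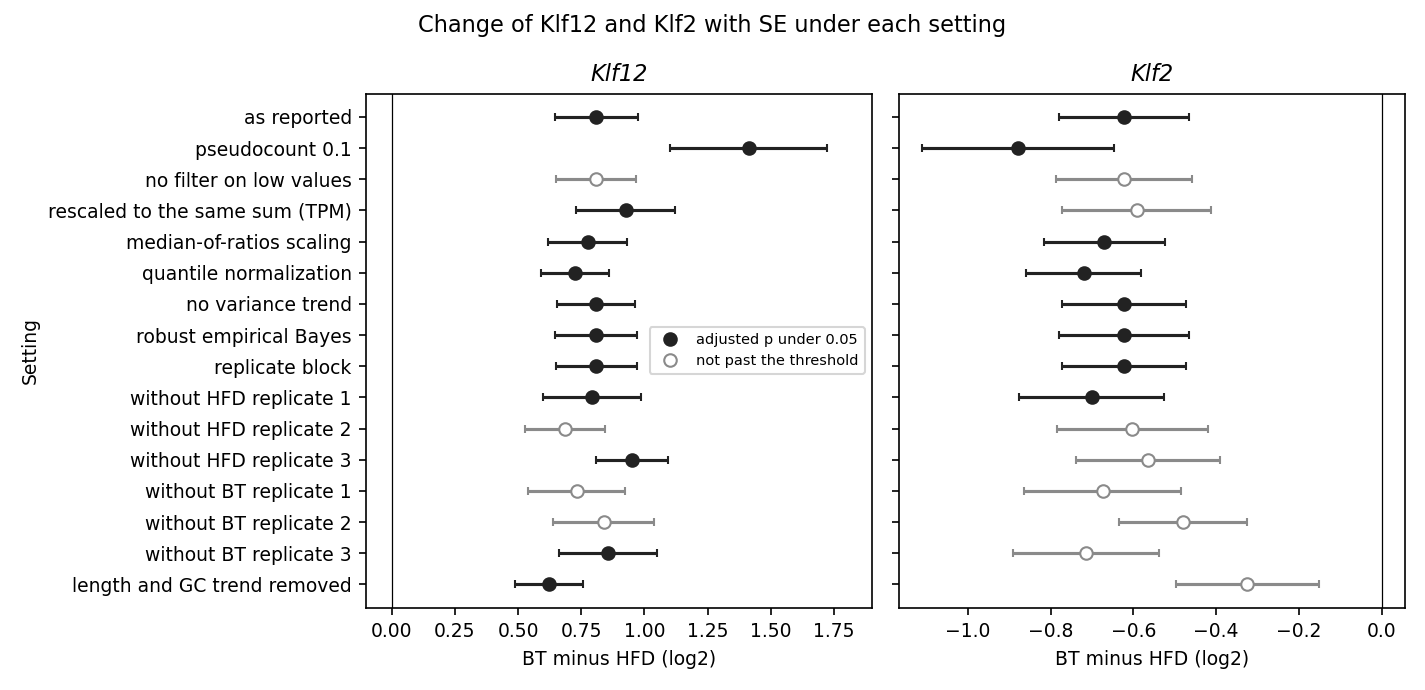
BT minus HFD change of Klf12 (left) and Klf2 (right) with limma's SE, as reported and under 15 other settings; filled points have an adjusted p under 0.05. No setting moves either gene across 0, and Klf12 keeps its call in 11 of the 15 settings and Klf2 in 7.

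Klf3, a repressor of the same CtBP-binding type as Klf12 and known from blood and fat cells, stood at 6.92, 9.57 and 9.80 FPKM in BT livers and 6.56, 4.91 and 7.87 FPKM in HFD livers. The lowest BT library lay within the HFD range. Its change of 0.40 ± 0.18 (SE) was not past the threshold (adjusted p = 0.168, 95% interval -0.02 to 0.81). The corepressor gene Ctbp1 had 16.6 ± 0.86 FPKM with BT and 15.7 ± 1.33 FPKM with HFD (adjusted p = 0.64), and Ctbp2 lay below the filter.

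Among the Sin3-type repressors, none passed. Klf9, which is induced by glucocorticoids and thyroid hormone, stood at 14.6, 11.7 and 14.0 FPKM with BT and 13.3, 7.74 and 14.9 FPKM with HFD, and HFD replicate 2 alone lay below the BT range. Its change was 0.19 (95% interval -0.30 to 0.68), and -0.069 without HFD replicate 2. Klf10, a TGF-beta-induced gene that also follows the clock in liver, stood at 8.12, 8.53 and 9.82 FPKM with BT and 7.69, 10.1 and 7.49 FPKM with HFD (0.07, 95% interval -0.25 to 0.38). The BT values lay within the range of the HFD values. Klf11, its closest relative, stood at 2.17, 2.42 and 3.26 FPKM with BT and 4.15, 3.03 and 3.50 FPKM with HFD. Only BT replicate 3 reached into the HFD range, and the change was -0.34 ± 0.15 (SE, adjusted p = 0.168, 95% interval -0.69 to 0.02). Klf13, known from T cells and heart, was even across libraries, at 4.09, 4.73 and 4.94 FPKM with BT and 4.22, 4.30 and 4.50 FPKM with HFD (0.06, 95% interval -0.20 to 0.32).

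Klf15 changed by -0.09 ± 0.10 (SE, adjusted p = 0.563), and its 95% interval of -0.32 to 0.14 was the narrowest of the 9. Both it and Klf13 varied little between libraries of a diet, at the 12.6th and 11.6th percentile of residual SD. For Klf15, a change as large as that of Klf2 or Klf12 lay outside the interval.

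The genes around the family were read from lists by their counts and medians, beside the median of 0.07 over all genes tested. Of the 7 other Krüppel-like factor genes in the table, Klf1 and Klf16 passed the level filter and neither was called (0.29, adjusted p = 0.268, and 0.04, adjusted p = 0.855). Klf5, Klf7 and Klf8 averaged below 0.6 FPKM with either diet, and Klf14 and Klf17 were listed at 0 throughout. Sp factors, which share the finger design and bind GC boxes, had 1 of 5 tested higher and none lower, with a median of 0.34. Sp4 had 1.47, 1.45 and 1.34 FPKM with BT and 0.596, 0.776 and 0.752 FPKM with HFD (0.50, adjusted p = 0.0325), so it too entered through its BT values. Sp1 differed by 0.34 (adjusted p = 0.0767). Of 14 cofactor and ubiquitin ligase genes tested, 1 was higher and none lower, with a median of 0.21. This was Sin3a, the scaffold that the Klf9 and Klf10 type binds, with 5.29, 7.30 and 6.13 FPKM with BT and 2.00, 2.64 and 4.65 FPKM with HFD (0.86 ± 0.23 SE, adjusted p = 0.0413). All 3 BT libraries lay above the HFD libraries, and the call was kept in 1 of the 6 fits that left out a library. It ended without the level filter (adjusted p = 0.105) and once length and GC trends were taken out (0.73, adjusted p = 0.075), which also ended the call of Sp4 (0.30, adjusted p = 0.173).

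Genes that share hormonal inputs with the family were mixed. Of 13 glucocorticoid-responsive genes 2 were lower and none higher, with a median of -0.09. They were Tsc22d3, the leucine zipper gene GILZ, with 23.3 ± 4.50 FPKM with BT and 42.3 ± 10.8 FPKM with HFD (-0.82, adjusted p = 0.0316), and the mTOR inhibitor gene Ddit4 (-0.81, adjusted p = 0.0455). Both calls ended after TPM rescaling (adjusted p = 0.0539 and 0.0668) and without the level filter (0.0811 and 0.114), that of Ddit4 also with the length and GC trend removed (-0.60, adjusted p = 0.143). Over the fits without 1 library the count lower ran from 0 to 4, the highest without HFD replicate 1. Nr3c1, the glucocorticoid receptor gene, differed by 0.39 (adjusted p = 0.0897) and Fkbp5, a classical target, by 0.17 (adjusted p = 0.508). Of 11 TGF-beta genes none was called, with a median of -0.02. The ligand gene Tgfb1 differed by -0.49 (adjusted p = 0.0511) and Smad4, the shared signal mediator, by 0.45 (adjusted p = 0.0597).

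Of 14 amino acid and glucose genes linked to Klf15, 1 was higher and 1 lower, with a median of 0.06. Bcat2, a branched-chain aminotransferase gene, rose by 0.40 (adjusted p = 0.0414) and Sds, serine dehydratase, fell by 0.74 (adjusted p = 0.0376). Exons of other gene models cover 29.6% of the exon bases of Sds. Prodh, proline dehydrogenase, a known Klf15 target in liver, differed by 0.34 (adjusted p = 0.093), and Gpt, alanine aminotransferase, by 0.23 (adjusted p = 0.181).

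Immediate early genes, a class that Klf2, Klf4, Klf6 and Klf10 resemble in their fast induction, had 2 of 14 lower and none higher, with a median of -0.77. Fos, Junb and Dusp1 stood highest in HFD replicate 1. There Fos had 7.41 FPKM, against 1.23 and 1.72 in HFD replicates 2 and 3, and Junb 57.1, against 22.3 and 16.2. In BT libraries Fos had 0.910 to 1.64 FPKM and Junb 11.9 to 18.9. Ier5, Atf3, Nr4a1 and Myc instead had their lowest HFD value in HFD replicate 1. Jund, an AP-1 subunit gene, had 3.99 ± 0.29 FPKM with BT and 13.8 ± 0.81 FPKM with HFD (-1.56, adjusted p = 0.00114), and an antisense gene model covers 52.6% of its exon bases. Its partner Jun fell by 1.22 (adjusted p = 0.04). Clock genes, which drive rhythms of Klf9, Klf10 and Klf15, had 6 of 15 higher and 1 lower, with a median of 0.43. Per3, Cry2, Tef and Per2 had the smallest p among them, with changes of 1.29, 0.91, 0.91 and 0.96 (adjusted p 0.00528 to 0.0156), while the 95% intervals of Klf9, Klf10 and Klf15 all included 0. Of the list genes named as past the threshold, Jund, Per3, Cry2 and Tef kept their calls whichever of the 6 libraries was left out. Per2 kept its call in 4 of these fits, Ttr in 3, Col3a1 in 2, and Sp4, Sin3a, Tsc22d3, Ddit4, Bcat2, Sds and Jun in 1. Sp4 fell below the level filter without BT replicate 1 or BT replicate 2 and was not tested in those fits. The first 4 also passed in all 9 other settings, though the change of Jund shrank to -0.93 (adjusted p = 0.0164) with length and GC trends removed. Without the level filter Per2 (adjusted p = 0.0508), Col3a1 (0.0964), Bcat2 (0.066), Sds (0.0899), Jun (0.103) and Ttr (0.0706) were lost. Sds (adjusted p = 0.0571) and Jun (0.0609) were also lost after TPM rescaling, and with length and GC trends removed (Sds 0.212, Jun 0.0598). Bcat2 was lost with median-of-ratios scaling (adjusted p = 0.0834) and with no variance trend (0.0523), and Col3a1 (0.06) and Jun (0.0631) with robust empirical Bayes.

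For the called members, the tested genes with the most similar pattern were found by the root mean square distance between log2(FPKM + 1) values centred on each gene's mean over the 6 libraries. Nearest to Klf2 were St6gal1 (distance 0.05), Ppil3 (0.07) and Cks2 (0.08). Nearest to Klf12 were Katnal1 (0.05), Hjurp (0.07) and Cdc42bpb (0.07). Changes of low genes come out too small on this scale, so a small distance does not mean an equal ratio between diets. Hjurp had 141 ± 6.05 FPKM with BT and 83.7 ± 18.5 FPKM with HFD, against means of 1.99 and 0.724 FPKM for Klf12. St6gal1, a sialyltransferase gene, had 10.9 ± 2.16 FPKM with BT and 16.1 ± 1.52 FPKM with HFD. Katnal1, a gene of the katanin family, had 2.82 ± 0.32 FPKM with BT and 1.22 ± 0.31 FPKM with HFD.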

How the data were processed

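Liver mRNA libraries were made with a TruSeq kit, per the labels' protocols. The authors deposited 1 table of FPKM values (fragments scaled by transcript length and library size), 1 column per library. CASAVA 1.8.2, STAR 2.4.0 and Cufflinks 2.1.1 are named, with no role, per the submitters' processing notes. Build, annotation and strandedness: not given in the sources used here. Sample titles gave the groups and replicate numbers. No pair of libraries was identical.

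Names, positions and transcripts came from GENCODE M21 (GRCm38), which named 22671 of 23474 identifiers, and promoters from RefSeq (GRCm38.p6). Both may differ from the authors' annotation. Depth was estimated in genes with 1 transcript over 1000 bases, as the inverse of the median of FPKM times length in kilobases between 0.03 and 0.1.

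Values were tested as log2(FPKM + 1) for genes averaging 1 FPKM or more (limma 3.58.1, R 4.3.3; lmFit, then eBayes with a variance trend; two-sided; 4 residual degrees of freedom; Benjamini-Hochberg over all 10476 genes; threshold 0.05). Changes are BT minus HFD. With 3 libraries against 3 the smallest p of an exact permutation test is 0.1, and that test was not used. The fit was tested on simulated data.

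The members, lists and tests were chosen with earlier results of these data known. All members were named, with the 2 tested genes of smallest p of each list (up to 4 if called) and the 3 genes most like each called member (predicted genes skipped). A result the rule would name is not reported here. Other genes were named after their values were seen: Nos3, Thbd, Ctbp1, Ctbp2, Nr3c1, Fkbp5, Prodh, Gpt, Klf5, Klf7, Klf8, Klf14, Klf17 and the markers listed at 0. So were Edn1, Ptgds, Ace, Cav1, Hgf, mt-Co1, Fos, Junb, Dusp1, Ier5, Atf3, Nr4a1 and Myc. The 14 alternatives listed at the start were a pseudocount of 0.1, no level filter, robust empirical Bayes, no variance trend, quantile normalization, TPM rescaling, median-of-ratios scaling, a replicate block and leaving out each of 6 libraries. Removal of length and GC trends (natural splines, 5 degrees of freedom) was added after seeing the data. Figures were drawn with matplotlib 3.10.9.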

Additional observations from a re-analysis of the deposited data

How the results depend on the processing

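Klf12 stayed positive and Klf2 negative in all 15 alternatives. Without the level filter 200 genes were called higher and 345 lower (630 and 768 as reported), no member passed, and Klf12 (0.81, adjusted p = 0.0523) and Klf2 (-0.62, adjusted p = 0.0885) lost their calls. Klf2 was also lost after TPM rescaling (-0.59) and once length and GC trends were removed (-0.33, 445 genes called lower), both leaving 0 members lower, while Klf12 kept its call in both. Every result after TPM rescaling rests on a sum that lacks Alb and mt-Co1 in HFD replicate 3. Over the fits without 1 library, Klf12 ranged from 0.68 to 0.95 and Klf2 from -0.71 to -0.48, members called higher from 0 to 1 and lower from 0 to 1, genes called higher from 48 to 857 and lower from 125 to 816. The lowest counts came without BT replicate 1. Counts were 104 and 224 without BT replicate 2, 206 and 383 without BT replicate 3 and 221 and 397 without HFD replicate 2.

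Uncalled members changed sign near 0: Klf15 after TPM rescaling (0.0018), Klf10 (-0.0020) and Klf13 (-0.035) with quantile normalization, and Klf13 once length and GC trends were removed (-0.097). Over the fits without 1 library Klf9 ranged from -0.069 (without HFD replicate 2) to 0.36 and Klf10 from -0.0056 to 0.19. None of these passed in any setting. Of 300 recomputed list counts, 226 stayed within 1.5 times the reported count and 74 did not.

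Samples with the same replicate number come from different animals or pools, so they were not treated as pairs. The correlations of their deviations from the diet means were 0.163, 0.0972 and 0.147. Between different numbers they were -0.134 to 0.00936, so each library correlated best with its own number. Whether the number marks a batch is not stated. With a replicate block Klf2 (-0.62, adjusted p = 0.0324) and Klf12 (0.81, adjusted p = 0.0188) were called as reported, as 859 genes were higher and 949 lower. Klf4 lay below the level filter by its mean of 0.556 FPKM. This would give roughly 18 to 29 fragments per library on its longest coding transcript and 3 to 5 on its shortest.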
